A study of Mus musculus with 60 samples.

Results

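The mRNAs of 5 enzymes were followed in 3 brain regions of mice; 4 of the proteins bind pyridoxal phosphate, the active form of vitamin B6 (VB6), and the fifth, SPTLC1, is the partner subunit of 1 of them. The genes were Sptlc1, Sptlc2, Sgpl1, Alas1 and Odc1, taken by gene symbol as 5 of the 21999 genes in the deposited tables. All 5 were found and all 5 passed the low-count filter in every region. The study crossed genotype and diet in 20 mice: from week 8 to week 12, Glo1 knockout (KO) and wild-type (WT) animals were fed a diet that held 1.4 mg VB6 per 100 g (normal) or 5 µg per 100 g (lacking). The labels do not say how the Glo1 allele was made, nor give the strain or sex. Each of the 4 combinations held 5 mice, and each mouse gave 1 library from the prefrontal cortex (labelled Pfc), 1 from the striatum (Str) and 1 from the hippocampus (Hip), so that 60 poly(A) libraries formed 12 groups of 5. VB6 was between 2.25 and 5.63 ng/µl in the 10 mice on the lacking diet and between 58.25 and 78.09 ng/µl in the 10 on the normal diet, per the labels, which do not name the material measured. All KO libraries carry batch number 1 and all WT libraries batch number 2, so genotype and batch cannot be told apart.

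Serine palmitoyltransferase joins serine to a fatty acyl-CoA in the first step of sphingolipid synthesis. SPTLC1 and SPTLC2 form its core, and the pyridoxal phosphate is bound by SPTLC2. SGPL1, sphingosine-1-phosphate lyase, works at the other end of the pathway and breaks sphingosine-1-phosphate irreversibly. ALAS1 condenses glycine with succinyl-CoA, the rate-limiting step of heme synthesis outside the red cell lineage. ODC1, ornithine decarboxylase, makes putrescine, the first polyamine, and is a short-lived protein that antizymes lead to the proteasome. Sphingolipids are abundant in myelin, heme is needed by the respiratory chain, and polyamines regulate ion channels and translation in neurons.

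Library totals were between 7640047 and 13928265 counts, and Glo1 had at most 10 counts in each of the 30 KO libraries against 299 to 734 counts in the 30 WT libraries. Markers set the striatum and the hippocampus apart as labelled: the summed RPKM (reads scaled to transcript length and library total) of 8 striatal medium spiny neuron markers was 2255 to 3081 in the striatum and at most 73.8 elsewhere, and that of 8 hippocampal markers was 109 to 132 in the hippocampus and at most 29.6 elsewhere. The 7 cortical excitatory neuron markers set the prefrontal libraries (382 to 451 RPKM) apart from the striatal ones (23.1 to 96.2) but not from the hippocampal ones (394 to 461). The 8 oligodendrocyte markers summed to 275 to 537 RPKM in prefrontal, 866 to 1163 in striatal and 625 to 1072 in hippocampal libraries. Choroid plexus markers summed to over 100 RPKM in 8 hippocampal libraries, 2 in each of the 4 groups, with a highest sum of 1253, beside medians of 1.57 in prefrontal and 5.23 in striatal libraries; results that use the hippocampus were also computed without these 8 libraries. The mean RNA integrity number (RIN) was 8.395 for prefrontal, 8.45 for striatal and 8.72 for hippocampal samples. Since whole tissue was sequenced, fewer cells of a type and less RNA per cell cannot be told apart.

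The 5 mRNAs were present at moderate levels in every library. The lowest count of any of them was 137, for Odc1 in a striatal library. Over all 60 libraries the mean was 10.6 RPKM for Sptlc1 (SD 0.983), 10.1 for Odc1 (SD 1.66), 8.09 for Alas1 (SD 1.25), 6.86 for Sptlc2 (SD 0.527) and 4.54 for Sgpl1 (SD 0.536). Sptlc2 varied least, with a coefficient of variation of 7.68%, and Odc1 most, with 16.3%. The highest of the 12 group means was 1.12 times the lowest for Sptlc2, 1.16 times for Sptlc1, 1.21 times for Sgpl1, 1.32 times for Odc1 and 1.34 times for Alas1. When the 12 groups of a gene were put in order of their means, the step between neighbours exceeded the larger of their SDs in 0 of 11 steps for each of the 5 genes. Sorting makes such steps small, and Glo1, with a 209-fold range of group means, exceeded it in only 2 of 11. The steps therefore do not tell whether groups farther apart in the order were separated.

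**Figure D1:**
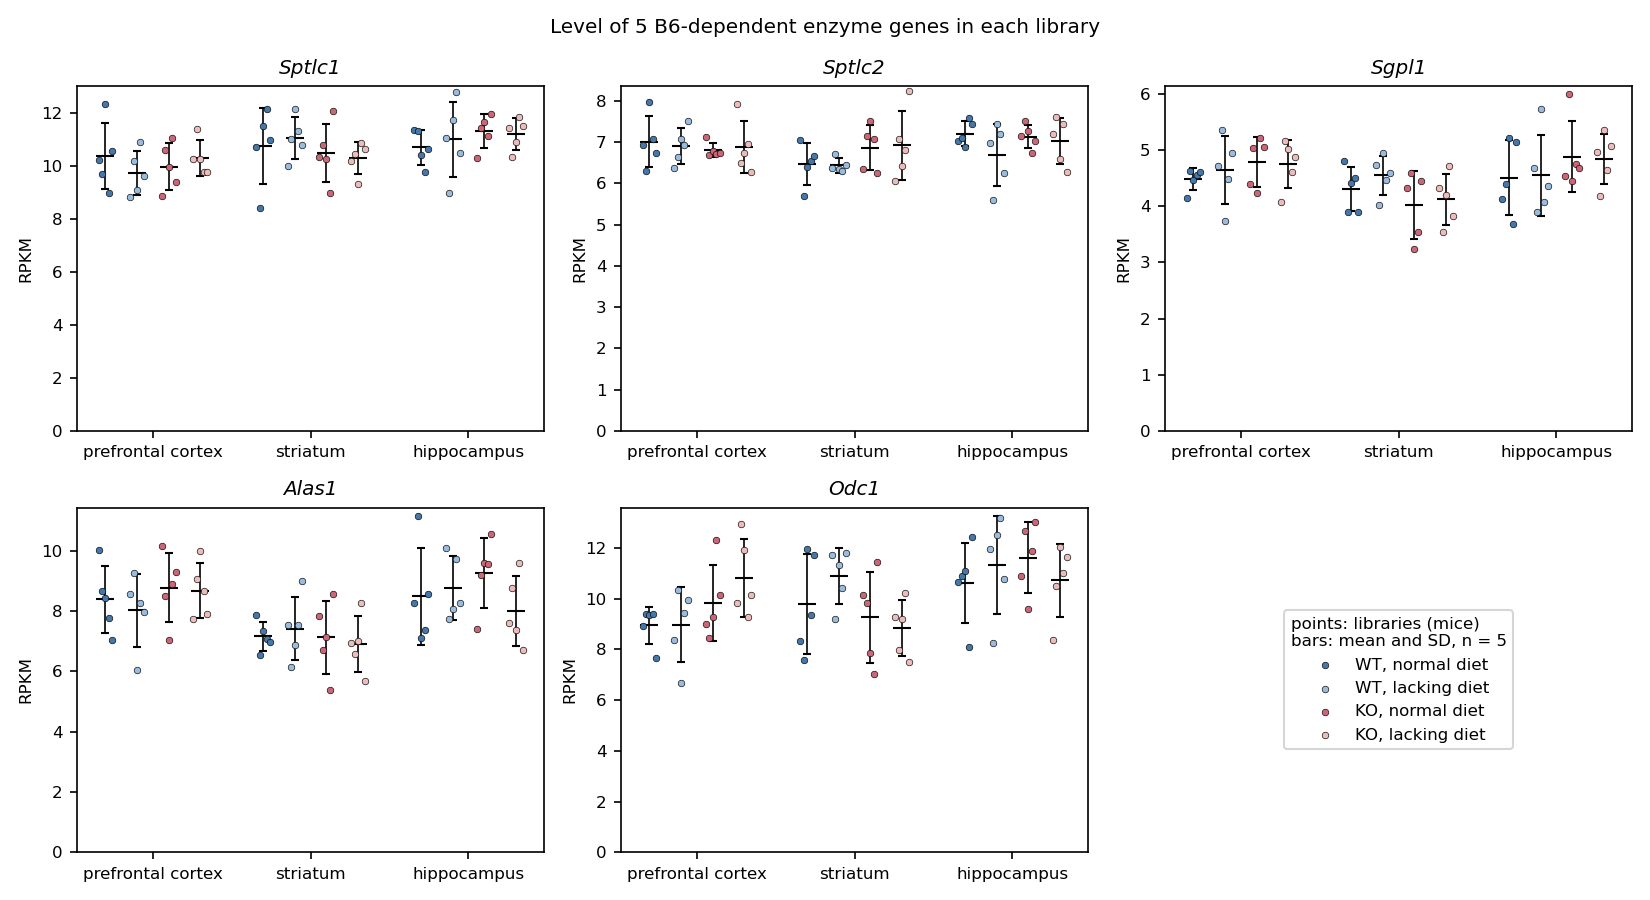
RPKM of Sptlc1, Sptlc2, Sgpl1, Alas1 and Odc1 (vertical axes, from 0) in 60 libraries, by brain region and by genotype and diet; points are libraries, bars the mean and SD of 5 mice. The 4 groups of a region overlap for every gene, and striatal Alas1 lies lowest among the regions, between 5.38 and 8.99 RPKM.

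The first question was whether a VB6 supply cut for 4 weeks changed the mRNA of enzymes that need the vitamin as cofactor. It moved none of them past the threshold. In the comparison of the lacking with the normal diet, averaged over genotypes, 0 of the 5 genes had a Benjamini-Hochberg adjusted p under 0.05 in edgeR's quasi-likelihood test in any region, against 0% of all genes tested in each region. Within WT mice and within KO mice the count was likewise 0 of 5 in each region, against 0% of all genes in each of these 6 comparisons. None of the 45 tests of these genes over the 9 diet comparisons had an unadjusted p under 0.05, with edgeR, with DESeq2 or with limma, whose smallest values were 0.0996, 0.0958 and 0.109. Over all genes, between 224 and 878 had an unadjusted p under 0.05 in these 9 comparisons with edgeR.

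The estimates were small as well as uncalled. Over the 15 combinations of gene and region, the log2 difference of the lacking from the normal diet, averaged over genotypes, lay between -0.06 (Alas1, hippocampus) and 0.07 (Odc1, prefrontal cortex). The widest limits of their 95% intervals were 0.853-fold and 1.17-fold. In the prefrontal cortex the median absolute log2 difference of the 5 genes was 0.03, beside 0.05 over all 13223 genes tested. In simulated data with the same design, edgeR found 84% (prefrontal cortex), 78% (striatum) and 79% (hippocampus) of genes given a 1.5-fold diet effect. Many genes were changed at once there, giving 191, 189 and 179 calls in all. With 0 genes called in the real diet comparisons, a single changed gene faces a stricter cutoff. These shares therefore do not give the chance of finding a change in 1 of the 5 genes.

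**Figure D2:**
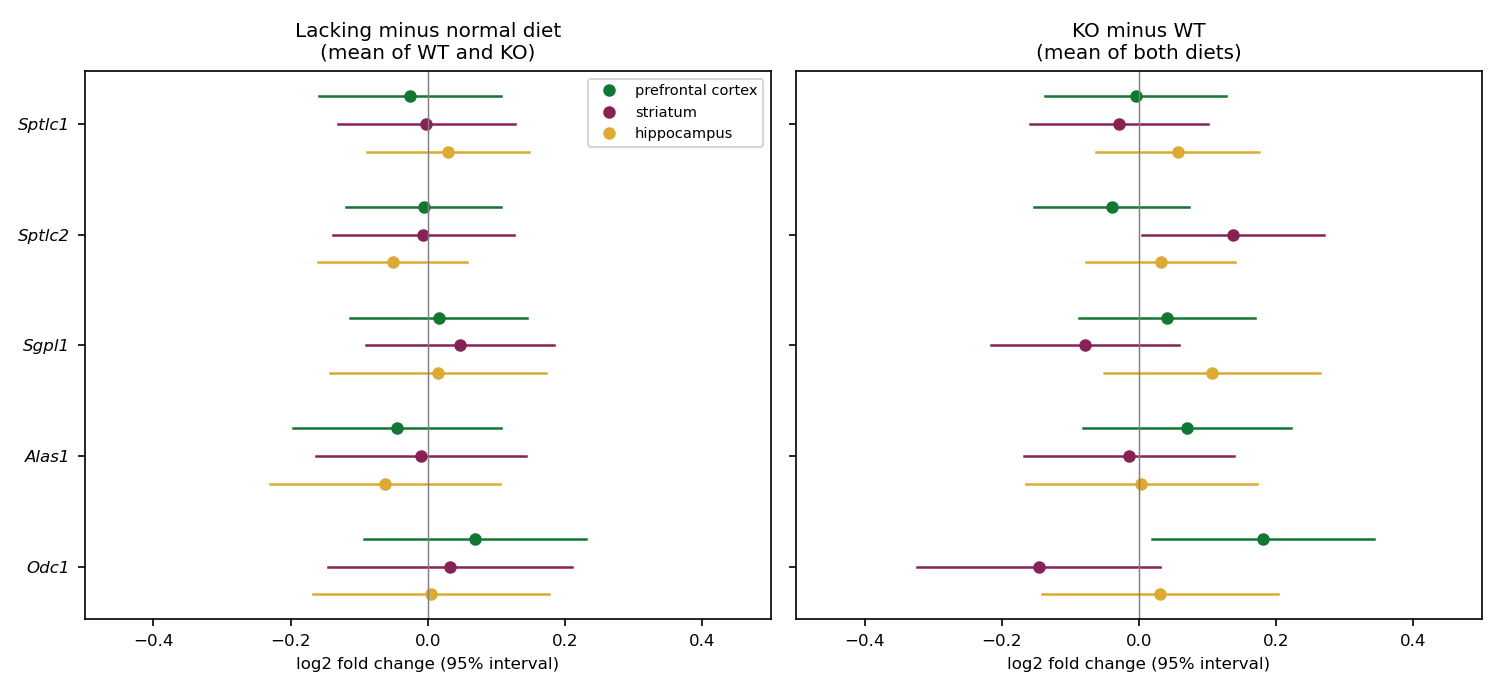
Log2 difference with its 95% interval (horizontal axes) of the lacking from the normal diet (left) and of KO from WT mice (right) for each gene by region, 20 libraries each. All 15 diet intervals include 0; on the right the intervals of Odc1 in the prefrontal cortex and of Sptlc2 in the striatum leave 0 out before adjustment over all genes.

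Loss of Glo1, which encodes glyoxalase 1, the enzyme that clears the reactive by-product methylglyoxal, gave 0 of 5 calls as well. With edgeR and averaged over diets, the count was 0 of 5 against 0.673%, 0.203% and 0.164% of all genes (prefrontal cortex, striatum, hippocampus). On the normal diet it was 0 of 5 against 0.121%, 0.0601% and 0.0299% of all genes in the same order. On the lacking diet it was 0 of 5 against 0.234%, 0.128% and 0.0672%. The pair that differed in both, KO lacking against WT normal, gave 0 of 5 against 0.28%, 0.0826% and 0.0149%. The interaction of genotype and diet gave 0 of 5 against 0% in each region. Over these 12 KO comparisons and 60 tests of the 5 genes, 4 had an unadjusted p under 0.05 with edgeR, 5 with DESeq2 and 4 with limma, and over the 15 interaction tests none had with any of the 3 tools.

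For each gene and region the 5 RPKM values of 1 group overlapped those of the group compared. The groups failed to overlap in 0 of 15 sets for the diet in WT mice, where the share of all genes without overlap was 0.355%, 0.676% and 0.448% in the same order of regions. For the diet in KO mice it was 0 of 15, against 0.839%, 0.21% and 2.58%. For KO against WT it was 0 of 15 on the normal diet, against 1.07%, 0.436% and 0.896%, and 0 of 15 on the lacking diet, against 1.75%, 0.984% and 1.42%.

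Sptlc1 (chr13:53332748-53377397, minus strand, GRCm38) encodes the subunit of serine palmitoyltransferase that holds the complex together. Group means are given in the order WT normal, WT lacking, KO normal and KO lacking (± SD, n = 5 each). Prefrontal Sptlc1 had 10.4 ± 1.25, 9.72 ± 0.842, 9.97 ± 0.889 and 10.3 ± 0.669 RPKM. In the striatum the 4 groups had 10.8 ± 1.43, 11.04 ± 0.780, 10.5 ± 1.10 and 10.3 ± 0.597 RPKM. In the hippocampus they had 10.7 ± 0.659, 10.995 ± 1.42, 11.3 ± 0.638 and 11.2 ± 0.594 RPKM. The order of the 4 groups was not the same in any pair of regions, and each step was within the spread. KO differed from WT by -0.01, -0.03 and 0.06 on the log2 scale (prefrontal cortex, striatum, hippocampus).

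Sptlc2 (chr12:87305058-87388355, minus strand) encodes the catalytic subunit. Its prefrontal means were 7.01 ± 0.620, 6.90 ± 0.432, 6.81 ± 0.174 and 6.88 ± 0.633 RPKM, and its hippocampal means 7.21 ± 0.295, 6.69 ± 0.750, 7.14 ± 0.289 and 7.03 ± 0.566 RPKM. The striatum is where KO and WT stood farthest apart for this gene. There the 5 WT libraries on the normal diet read 5.68, 6.40, 6.55, 6.68 and 7.06 RPKM, and the 5 on the lacking diet 6.30, 6.34, 6.37, 6.44 and 6.72 RPKM. The KO libraries read 6.25, 6.34, 7.07, 7.15 and 7.51 RPKM on the normal diet and 6.06, 6.42, 6.82, 7.08 and 8.23 RPKM on the lacking diet. The 3 highest values came from KO mice and the lowest from a WT mouse, and the groups overlapped on both diets. Averaged over diets, KO exceeded WT by 0.14 (log2, SE 0.064, edgeR adjusted p = 0.74), so the difference did not pass. The prefrontal KO difference was -0.04, and the KO effects of these regions differed by -0.18 (prefrontal minus striatal, SE 0.078, adjusted p = 0.52), also not past the threshold. None of the 5 genes passed in any test of whether a diet or KO effect differed between regions: 0 of 5 in each of these 6 comparisons, against 0.00718% of all genes for the KO effect between prefrontal cortex and hippocampus and 0% for the other 5. Of these 30 tests, 2 had an unadjusted p under 0.05 with each of edgeR, DESeq2 and limma.

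The ratio of Sptlc1 to Sptlc2 RPKM within a library averaged 1.47 ± 0.141 (prefrontal cortex), 1.60 ± 0.190 (striatum) and 1.58 ± 0.131 (hippocampus) (SD, n = 20 mice). The ratio was lower in the prefrontal cortex than in the striatum of the same animal in 13 of 20 mice and lower than in the hippocampus in 16 of 20. It ranged from 1.24 to 1.76 in the prefrontal cortex and from 1.27 to 1.93 in the striatum, so that the regions overlapped widely. The ratio uses the gene lengths behind the deposited RPKM, which for Sptlc1 is 2606 bases where the annotated exons together span 3556, and for Sptlc2 is 8115 in both. Without lengths, on raw counts, the ratio was 0.471, 0.515 and 0.507 in the same order of regions. Its absolute size therefore depends on the length used, and its order among regions does not.

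Several other genes of sphingolipid synthesis had larger regional differences. Of 18 tested genes of the list (20 named), 5 were higher and 7 lower in the prefrontal cortex than in the striatum (66.7% called), 3 higher and 7 lower than in the hippocampus (55.6%), and 4 were higher and 5 lower in the striatum than in the hippocampus (50%). The shares over all genes are 69.9%, 59.3% and 66.4%, and the list's median log2 differences were -0.10, -0.06 and 0.07. Ugt8a, which makes galactosylceramide for myelin, was 1.24 lower on the log2 scale in the prefrontal cortex than in the striatum (log2 difference -1.24, SE 0.072, adjusted p = 1.9e-23). Sptssa, a small activating subunit of serine palmitoyltransferase, was also lower there (-0.60, SE 0.086, adjusted p = 1.3e-08), and so was the ceramide synthase Cers2 (-0.50, SE 0.077). Another ceramide synthase, Cers4, was higher there by 0.79 (SE 0.058). Oligodendrocyte markers moved with Ugt8a: 8 of 8 were lower in the prefrontal cortex than in the striatum, with a median of -1.28, and their part in the result was not tested. In the hippocampus Cers6 stood 0.39 above the prefrontal cortex (log2 difference -0.39, SE 0.029) and 0.64 above the striatum (-0.64, SE 0.029). Ugcg, Degs1 and Ugt8a were the most abundant of the list, at 31.7, 30.2 and 21.0 RPKM over all libraries. Within regions, 0 of 17 (prefrontal cortex), 0 of 18 (striatum) and 0 of 17 (hippocampus) tested genes of this list were called for diet or for KO averaged over the other factor.

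Sgpl1 (chr10:61098642-61147703, minus strand) was the least abundant of the 5. Its prefrontal means, in the same order of groups, were 4.49 ± 0.196, 4.65 ± 0.602, 4.79 ± 0.439 and 4.75 ± 0.433 RPKM. The corresponding striatal means were 4.31 ± 0.397, 4.55 ± 0.345, 4.03 ± 0.604 and 4.12 ± 0.458 RPKM, and the hippocampal means 4.51 ± 0.660, 4.55 ± 0.726, 4.89 ± 0.637 and 4.85 ± 0.449 RPKM. Both KO means lay above both WT means in the prefrontal cortex and hippocampus and below them in the striatum. The KO difference averaged over diets was 0.04 (SE 0.063) in prefrontal, -0.08 (SE 0.066) in striatal and 0.11 (SE 0.076) in hippocampal tissue, with edgeR adjusted p of 0.81, 0.76 and 1.00. The contrast of the striatal with the hippocampal KO effect was -0.18 (SE 0.093, adjusted p = 0.74).

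Between regions Sgpl1 passed in 1 of 3 pairs in the main edgeR fit. Its lowest, median and highest values over 20 mice were 3.74, 4.62 and 5.36 RPKM for the prefrontal cortex, 3.24, 4.38 and 4.95 for the striatum and 3.68, 4.66 and 6.005 for the hippocampus. The prefrontal values ran slightly above the striatal ones, with wide overlap, and were higher in 15 of 20 mice. The edgeR difference was 0.11 (SE 0.046, adjusted p = 0.028), or 1.08-fold with a 95% interval of 1.01 to 1.15. This call was lost when mouse 226, 244, 259, 317 or 452 was left out, with adjusted p up to 0.076. Striatal minus hippocampal, the difference was -0.06 (SE 0.046, edgeR adjusted p = 0.25). That pair passed with limma (-0.12, adjusted p = 0.018) and with edgeR without TMM (-0.14, adjusted p = 0.015).

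Among the genes of sphingolipid breakdown and sphingosine-1-phosphate signalling, 8 of 19 tested (22 named) were higher and 8 lower in the prefrontal cortex than in the striatum (84.2% called), 7 higher and 7 lower than in the hippocampus (73.7%), and 7 were higher and 6 lower in the striatum than in the hippocampus (68.4%). The shares called over all genes are 69.9%, 59.3% and 66.4%, and the list's median log2 differences were -0.04, 0.09 and 0.05. The striatum stood out for 3 genes of this list. Smpd3, neutral sphingomyelinase 2, had 49.5 ± 4.39 RPKM in the striatum against 9.77 ± 0.719 in the prefrontal cortex and 14.7 ± 1.15 in the hippocampus (SD, n = 20). Acer2, an alkaline ceramidase, had 4.84 ± 0.835 RPKM against 1.22 ± 0.288 and 1.15 ± 0.172. Sgpp2, a sphingosine-1-phosphate phosphatase, had 10.6 ± 1.36 RPKM against 3.84 ± 0.556 and 2.27 ± 0.321. Their prefrontal minus striatal log2 differences were -2.36, -2.01 and -1.49 (adjusted p = 3.4e-51, 2.7e-29 and 9.1e-32). The receptor S1pr1, with 85.8 RPKM the most abundant of the list, and Asah1 and Sgpp1, at 28.9 and 25.2 RPKM, exceeded Sgpl1 in level. Neither diet nor KO, averaged over the other factor, called a gene of this list in any region (0 of 19, 0 of 19 and 0 of 18).

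**Figure D3:**
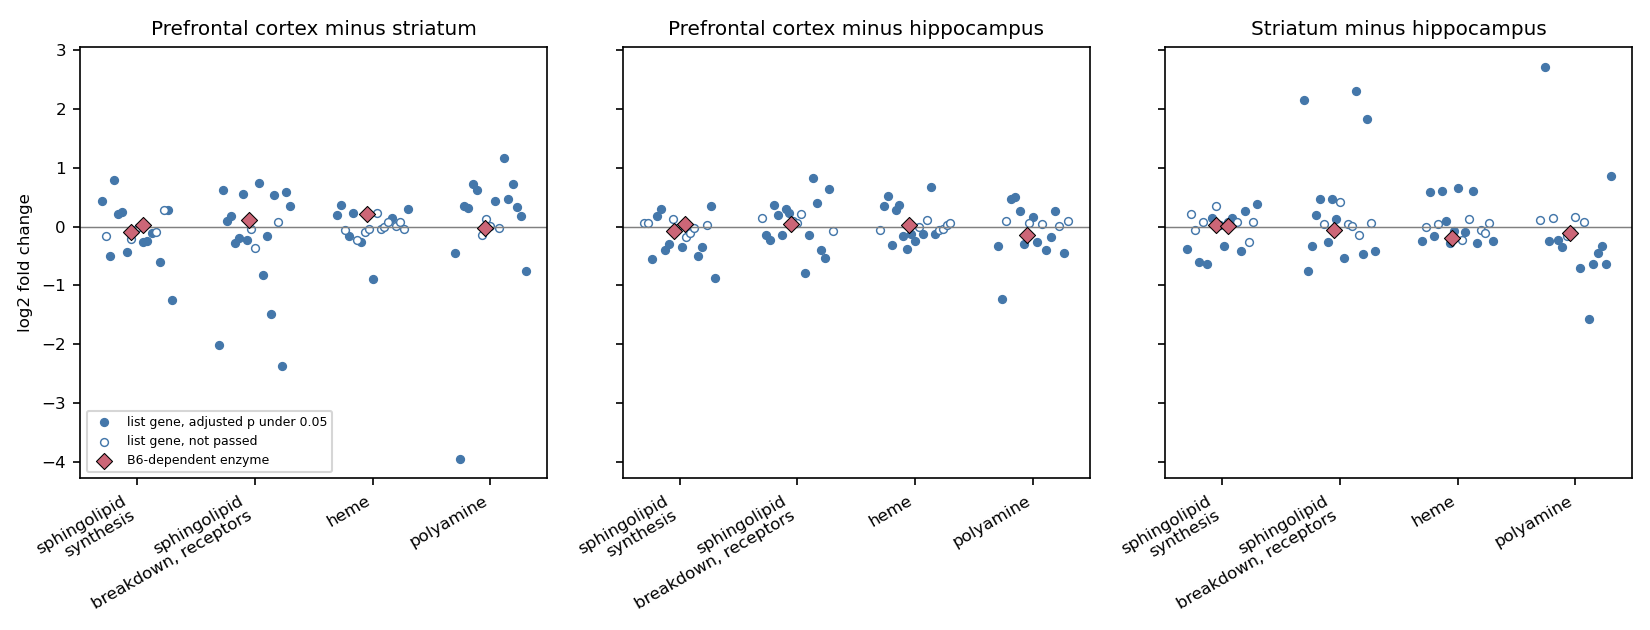
Log2 difference between regions (vertical axes) of the genes of 4 lists, from a fit of 60 libraries; filled circles passed an adjusted p of 0.05, open circles did not, and diamonds are the 5 B6-dependent enzymes. The diamonds lie between -0.19 and 0.22 in all 3 panels, while list genes such as Arg2 and Smpd3 reach -3.95 and -2.36.

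Alas1 (chr9:106233455-106248654, minus strand) had the regional differences with the smallest adjusted p of the 5 genes: it was lower in the striatum than in both other regions. The lowest, median and highest values over 20 mice were 5.38, 7.04 and 8.99 RPKM in the striatum, 6.05, 8.54 and 10.2 in the prefrontal cortex and 6.73, 8.42 and 11.1 in the hippocampus. The median of each other region lay near the top of the striatal range, although the ranges overlapped. The striatum was lower than the prefrontal cortex of the same animal in 17 of 20 mice and lower than the hippocampus in 17 of 20 (15 of 20 with TMM scaling). The prefrontal minus striatal difference was 0.22 (log2, SE 0.055, edgeR adjusted p = 0.00043), or 1.16-fold with a 95% interval of 1.08 to 1.26. The striatal minus hippocampal difference was -0.19 (SE 0.055, adjusted p = 0.0023), or 0.877-fold. Both calls were kept in 20 of 20 fits that left out 1 mouse and in the other 7 settings, and without the 8 choroid-rich libraries the hippocampal difference was -0.18 (adjusted p = 0.0067). The prefrontal cortex and hippocampus were not separated (0.03, SE 0.055, 95% interval of the fold 0.946 to 1.10).

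By genotype and diet Alas1 varied within its spread. The 4 group means, in the order WT normal, WT lacking, KO normal and KO lacking, were 8.39 ± 1.11, 8.02 ± 1.2, 8.78 ± 1.16 and 8.67 ± 0.917 RPKM in the prefrontal cortex. They were 7.16 ± 0.488, 7.42 ± 1.05, 7.13 ± 1.21 and 6.90 ± 0.925 RPKM in the striatum, and 8.49 ± 1.61, 8.78 ± 1.06, 9.26 ± 1.16 and 8.02 ± 1.16 RPKM in the hippocampus. The largest gap between diets for this gene was in hippocampal KO mice. There the 5 libraries on the normal diet read 7.40, 9.21, 9.55, 9.61 and 10.6 RPKM and the 5 on the lacking diet 6.73, 7.38, 7.59, 8.78 and 9.60 RPKM. Most of the normal-diet values lay above most of the lacking-diet values, but 1 normal-diet library fell among the lowest, and the difference of -0.16 (SE 0.12, edgeR adjusted p = 0.73) did not pass. The KO difference of Alas1 in the hippocampus was 0.00 with the choroid-rich libraries and 0.20 without them, and neither passed. Leaving out these 8 libraries also makes each group smaller, and the part of choroid plexus content in the shift was not tested.

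The bases before a start site of Alas1 are shown because they hold a perfect copy of the core letters bound by NRF-1, a regulator of mitochondrial and heme genes. The stretch is chr9:106247906-106247935 on the minus strand (RefSeq, GRCm38.p6), with the match in capitals. It lies inside the annotated span of Alas1 given above and downstream of the other RefSeq start of this gene, so it does not precede every start.
Alas1: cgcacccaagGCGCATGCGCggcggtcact
RefSeq start windows were matched for all 5 genes, with 2 windows for Alas1 and 1 for each other gene, and the 250 bases before each start were searched on both strands for the NRF-1 core (the letters in capitals above), CACGTG (E-box) and GGGCGG (GC box). Among the 5 genes the NRF-1 core was in 1 of the Alas1 windows alone, and 0.782% of all 32851 windows hold it. None of the 6 windows holds the E-box, which 6.02% of all windows hold. A match describes the letters only.

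The list of heme metabolism held 19 genes, all tested. Of these 19 genes, 5 were higher and 3 lower in the prefrontal cortex than in the striatum (42.1% called), 5 higher and 7 lower than in the hippocampus (63.2%), and 5 were higher and 7 lower in the striatum than in the hippocampus (63.2%), with median log2 differences of -0.00, -0.04 and -0.06. The shares called over all genes are 69.9%, 59.3% and 66.4% in the same order of pairs. Alad, the enzyme directly after ALAS1, was higher in the prefrontal cortex than in the striatum by 0.37 (SE 0.11, adjusted p = 0.0032) and Uros by 0.30 (SE 0.061). Clpx, a chaperone subunit of the mitochondrial protease that acts on ALAS1, was lower there by 0.27 (log2 difference -0.27, SE 0.045). The red cell form of the enzyme, Alas2, read 0.891 ± 0.358 RPKM in prefrontal, 0.909 ± 0.344 in striatal and 0.648 ± 0.223 in hippocampal libraries (SD, n = 20). It was higher in the prefrontal cortex than in the hippocampus by 0.53 (SE 0.17, adjusted p = 0.0071), a call that is lost with RIN in the model (0.33), and red blood cell markers had the same direction, 2 of 4 being higher there; their part was not tested. Hmox2, Nr1d1 and Fech were the most abundant of the list, at 24.6, 24.4 and 21.0 RPKM. No gene of the heme list was called for diet or KO averaged over the other factor in any region (0 of 19 in each). Alas1 overlaps 4930500F10Rik on the other strand, and 4.81% of its 75-base transcript stretches also occur in that gene. The strand setting of the counting is not given in the sources used here, so reads of the pair cannot be told apart.

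Odc1 (chr12:17544794-17551505, plus strand) is the gene of the 5 whose KO difference came nearest to the threshold. Prefrontal WT libraries read 7.67, 8.93, 9.34, 9.38 and 9.39 RPKM on the normal diet and 6.68, 8.38, 9.45, 9.95 and 10.4 RPKM on the lacking diet. The KO libraries read 8.44, 9.00, 9.27, 10.1 and 12.3 RPKM on the normal diet and 9.26, 9.85, 10.2, 11.9 and 12.9 RPKM on the lacking diet. The 3 values above 11 RPKM all came from KO mice, and KO and WT overlapped on both diets. Averaged over diets KO exceeded WT by 0.18 (log2, SE 0.079, edgeR adjusted p = 0.30), which is 1.13-fold with a 95% interval of 1.01 to 1.27. The adjusted p was between 0.15 and 0.51 in all settings and left-out mice. KO lacking against WT normal gave 0.25 (SE 0.11, adjusted p = 0.34).

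In the striatum Odc1 ran the other way. WT libraries read 7.59, 8.32, 9.36, 11.7 and 12.0 RPKM on the normal diet and 9.19, 10.4, 11.3, 11.7 and 11.8 RPKM on the lacking diet. KO libraries read 7.04, 7.85, 9.84, 10.2 and 11.45 RPKM on the normal diet and 7.49, 7.97, 9.19, 9.30 and 10.2 RPKM on the lacking diet. On the lacking diet 4 of 5 WT values lay above all 5 KO values, and the lowest WT library fell within the KO range; on the normal diet the groups shared most of their range. The KO difference there was -0.24 (SE 0.12, adjusted p = 0.80), and -0.15 (SE 0.086, adjusted p = 0.74) averaged over diets. The contrast of the prefrontal with the striatal KO effect was 0.32 (SE 0.12, 95% interval 0.09 to 0.56, adjusted p = 0.50), which did not pass. In the hippocampus the 4 group means, in the order WT normal, WT lacking, KO normal and KO lacking, were 10.6 ± 1.58, 11.3 ± 1.93, 11.6 ± 1.39 and 10.7 ± 1.43 RPKM, and the KO difference was 0.03 (SE 0.083).

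Between regions Odc1 was highest in the hippocampus, with a mean of 11.1 ± 1.53 RPKM, against 9.64 ± 1.48 for prefrontal and 9.69 ± 1.62 for striatal libraries (SD, n = 20). The hippocampal value was the higher in 15 of 20 mice against the prefrontal cortex and in 15 of 20 against the striatum. Prefrontal minus hippocampal the edgeR difference was -0.15 (SE 0.059, adjusted p = 0.027), and striatal minus hippocampal it was -0.11 (SE 0.059, adjusted p = 0.081). The call of the first was lost without mouse 225, 241, 246, 268, 317, 339 or 452, with adjusted p up to 0.076, and it held without the 8 choroid-rich libraries (-0.16, adjusted p = 0.031). RIN is higher in the hippocampus, and with RIN in the edgeR model both differences became larger: -0.22 (adjusted p = 0.0012) and -0.17 (adjusted p = 0.0068). Of the 75-base stretches of Odc1, 16.6% also occur in 13 other annotated genes, so a part of its reads cannot be placed by sequence alone.

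The bases before the annotated start of Odc1 are shown for their 3 GC boxes, in capitals on either strand. The stretch is chr12:17544623-17544793 on the plus strand (RefSeq, GRCm38.p6), 171 bases with a GC content of 77.2%.
Odc1: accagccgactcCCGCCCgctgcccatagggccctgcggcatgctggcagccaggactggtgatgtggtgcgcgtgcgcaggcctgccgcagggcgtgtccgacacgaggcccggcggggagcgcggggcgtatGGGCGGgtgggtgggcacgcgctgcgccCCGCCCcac
In the full Odc1 window of 250 bases there are 4 GC boxes, of which 1 lies after the annotated gene start. Sgpl1 has 3, Sptlc2 has 2 and Sptlc1 has 1, and Alas1 has 1 in 1 of its windows and 0 in the other. Over all windows, 32.7% hold at least 1.

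The polyamine list held the single pathway gene that passed within a region. In the prefrontal cortex 1 of its 17 tested genes was called, lower in KO mice, both averaged over diets (0.673% of all genes called) and on the lacking diet (0.234%). In each of the other comparisons within a region, for diet, KO and interaction, the count was 0 of 17. Oaz1 encodes antizyme 1, the protein that binds ODC1 and sends it for degradation. Its prefrontal WT libraries read 30.4, 32.1, 38.8, 43.0 and 50.9 RPKM on the normal diet and 19.5, 36.4, 40.2, 50.2 and 64.9 RPKM on the lacking diet. Its KO libraries read 18.1, 20.2, 20.6, 39.7 and 49.2 RPKM on the normal diet and 16.6, 17.7, 17.9, 18.8 and 26.7 RPKM on the lacking diet. All 5 KO libraries on the lacking diet were below 27 RPKM, as were 3 of 5 KO libraries on the normal diet and 1 of 10 WT libraries. Oaz1 was lower in KO than in WT mice by 0.78 averaged over diets (log2 difference -0.78, SE 0.18, edgeR adjusted p = 0.033) and by 1.15 on the lacking diet (-1.15, SE 0.26, adjusted p = 0.044). On the normal diet the difference was -0.40 (SE 0.25, adjusted p = 0.93), and the interaction of genotype and diet did not pass (-0.75, SE 0.36, adjusted p = 1.00).

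This call was not firm. It was lost with limma (adjusted p = 0.092 averaged over diets and 0.18 on the lacking diet) and, averaged over diets, without mouse 241, 242, 246, 259, 272, 286, 317, 325, 339, 368, 381, 390 or 452 (13 of 20), with adjusted p up to 0.083; over all 20 such fits the log2 difference stayed between -0.91 and -0.66. On the lacking diet 11 of 20 such fits lost it, as did the fit without TMM. The striatal KO difference of Oaz1 was 0.10 (SE 0.25) and in the hippocampus -0.01 (SE 0.26), and its values ran from 15.4 to 75.5 and from 15.7 to 68.0 RPKM there. Low values were not confined to KO mice: the 5 striatal WT libraries on the lacking diet lay between 17.6 and 24.3 RPKM. Between the prefrontal cortex and the striatum the KO effect on Oaz1 differed by -0.88 (SE 0.37, adjusted p = 0.50), which did not pass. Of its 75-base stretches, 17% also occur in the pseudogene Oaz1-ps. Across the 60 libraries Oaz1 and Odc1 varied inversely, with a Pearson r of -0.51 between their log2 RPKM. After the group means were subtracted it was -0.54. The libraries share mice, the values also carry shared depth and RNA quality, and the pair was chosen after Oaz1 was seen to pass. How many genes reach an r of this size with Odc1 was not counted. Rnf112, which is not on the polyamine list, had 0.74 on log2 counts scaled to the library total. In the prefrontal KO comparison over diets, 1 of 6 astrocyte, 1 of 6 microglia and 1 of 7 medium spiny neuron markers were lower. Of all genes, 0.673% were called there. No oligodendrocyte (8 tested), cortical excitatory neuron (7) or hippocampal marker (4) was called. Nor was an endothelial (5), red blood cell (3) or choroid plexus marker (2). Summed microglial markers were 86.4 to 106 RPKM in KO and 97.8 to 111 in WT libraries, and astrocyte markers 818 to 1020 and 889 to 1146; their part in the result was not tested.

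**Figure D4:**
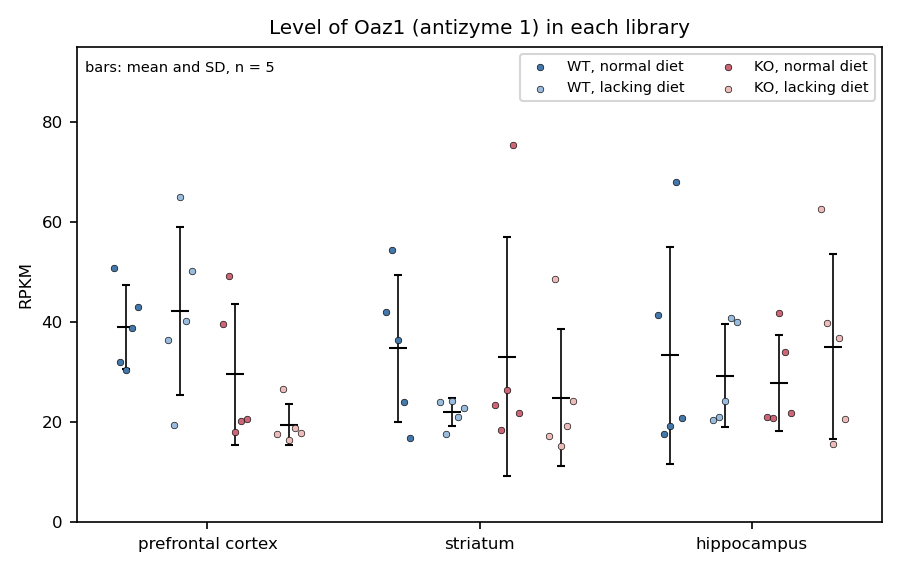
RPKM of Oaz1 (vertical axis, from 0) in 60 libraries by region, genotype and diet; points are libraries, bars the mean and SD of 5 mice. In the prefrontal cortex the 5 KO libraries on the lacking diet lie between 16.6 and 26.7. They overlap the 5 WT libraries on that diet, which lie between 19.5 and 64.9. Striatal WT libraries on the lacking diet are similarly low and narrow, between 17.6 and 24.3.

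Between regions, 10 of 17 tested polyamine genes (21 named) were higher and 3 lower in the prefrontal cortex than in the striatum (76.5% called), 5 were higher and 7 lower than in the hippocampus (70.6%), and 2 were higher and 9 lower in the striatum than in the hippocampus (64.7%), with median log2 differences of 0.31, 0.04 and -0.22. Over all genes the shares called are 69.9%, 59.3% and 66.4%. The striatum was set apart by Arg2, a mitochondrial arginase that yields ornithine, the substrate of ODC1: it had 10.5 ± 1.62 RPKM in the striatum, 0.690 ± 0.285 in the prefrontal cortex and 1.69 ± 0.430 in the hippocampus (SD, n = 20; prefrontal minus striatal -3.95, SE 0.12, adjusted p = 9.6e-37). Spermidine synthase, Srm, was also highest in the striatum, at 12.7 ± 3.15 RPKM against 7.58 ± 1.38 and 7.43 ± 1.66. Sat2, an acetyltransferase related to the spermidine/spermine enzyme, was lowest there, at 2.25 ± 0.482 RPKM against 5.19 ± 1.02 and 7.06 ± 1.37. Slc3a2, a carrier subunit, was 0.73 higher in the prefrontal cortex than in the striatum (SE 0.046). Spermine synthase, Sms, was lower in the prefrontal cortex than in the hippocampus by 0.45 (log2 difference -0.45, SE 0.042). Azin1, an antizyme inhibitor, was the most abundant of the list at 41.8 RPKM, followed by Oaz1 at 30.9 and Sms at 23.6.

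In size, the differences of the 5 enzymes between regions were small beside those of all genes. The counts of calls depended on the processing, as given in a later section. Past the threshold were 3 of 5 between the prefrontal cortex and striatum, against 69.9% of all 13930 genes, 1 of 5 between the prefrontal cortex and hippocampus, against 59.3%, and 1 of 5 between the striatum and hippocampus, against 66.4%. The third call of the first pair, beside Alas1 and Sgpl1, was Sptlc1, which was lower in the prefrontal cortex by 0.10 (log2 difference -0.10, SE 0.039, adjusted p = 0.020), with 8.83, 10.1 and 12.3 RPKM as lowest, median and highest value there and 8.40, 10.7 and 12.2 RPKM in the striatum. These ranges overlapped almost fully, 14 of 20 mice had the lower value in the prefrontal cortex, and the call was lost without TMM factors (adjusted p = 0.11), with limma (0.10) and without mouse 286, 339 or 390. Sptlc2 passed in none of the 3 pairs, with differences of 0.03, 0.04 and 0.01 and SEs of 0.039. The median absolute log2 difference of the 5 genes was 0.10, 0.05 and 0.06 in the 3 pairs, against 0.30, 0.21 and 0.26 over all genes. By direction, 34% of all genes were higher and 35.9% lower in the prefrontal cortex than in the striatum, beside 2 and 1 of the 5. Against the hippocampus 29.1% were higher and 30.2% lower in the prefrontal cortex, beside 0 and 1 of the 5, and 33.6% higher and 32.9% lower in the striatum, beside 0 and 1 of the 5.

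**Figure D5:**
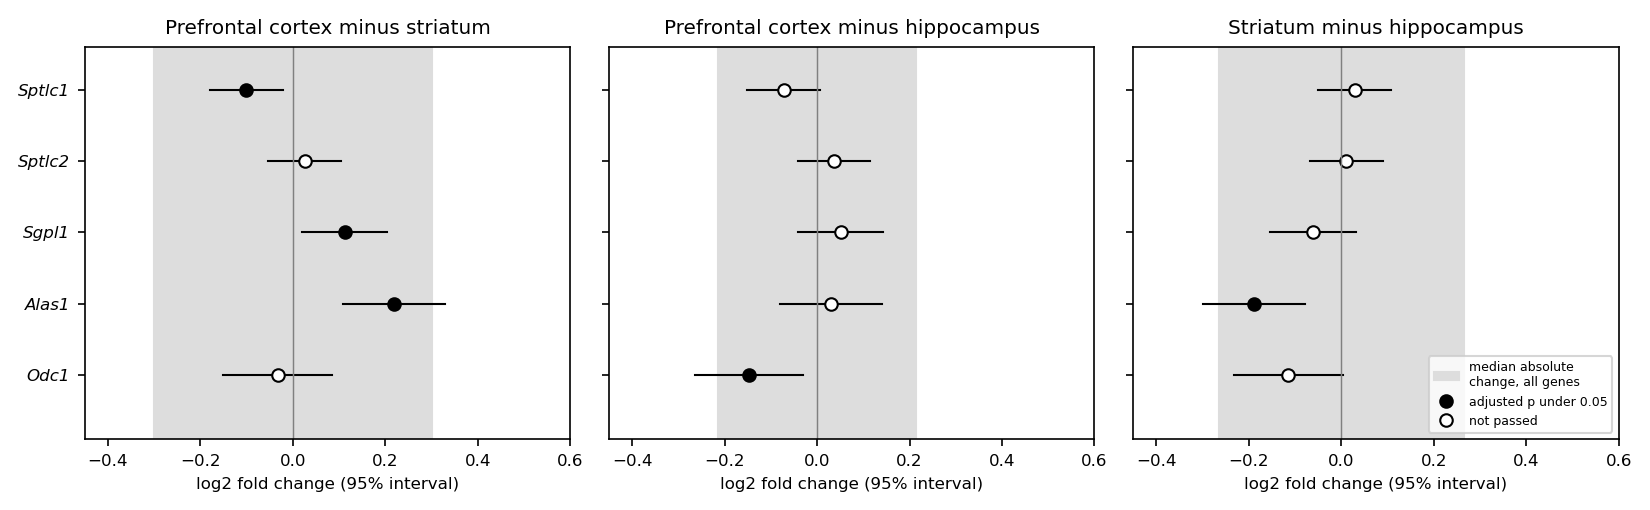
Log2 difference between regions with its 95% interval (horizontal axes) for the 5 genes, from a fit of 60 libraries; filled circles have an adjusted p under 0.05, and the grey band spans the median absolute difference of all 13930 genes on both sides of 0. All 15 estimates lie inside the band, and 5 are filled: Sptlc1, Sgpl1 and Alas1 on the left, Odc1 in the middle and Alas1 on the right.

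Variation between mice linked some of the 5 genes loosely. Over the 60 libraries, the Pearson r of log2 CPM (counts scaled to the library total) was highest for Sgpl1 and Odc1 (0.40, and 0.46 after group means were subtracted) and lowest for Sptlc2 and Odc1 (-0.41 and -0.33), while the subunit pair Sptlc1 and Sptlc2 had 0.12 and 0.21. The genes most like Alas1 were Strn4, Idh3g and Tmem63b, with r of 0.76, 0.74 and 0.74 over the 60 libraries. For Odc1 they were Rnf112, Adam15 and Nisch (0.74, 0.74 and 0.73), and for Sgpl1 Ndufv1, Rnf10 and Chchd6 (0.64, 0.63 and 0.63). For Sptlc2 they were Pgbd1, Zfp612 and Sod2 (0.60, 0.58 and 0.55), and for Sptlc1 Nono, Ech1 and Ndufa1 (0.56, 0.55 and 0.53). The 3 libraries of each mouse enter these values, which also carry shared depth and RNA quality, and they are given as descriptions.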

How the data were processed

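The authors deposited raw counts per gene and RPKM for 60 libraries; the submitters' processing notes name STAR 2.7.1a, HTSeq 0.9.1 and mm10, without roles, annotation or strand setting. The deposited RPKM matched the count over an integer length and the column total (relative tolerance 1e-06) for all 18514 genes with counts. Counts were tested with edgeR 4.0.16 in R 4.3.3 (filterByExpr with a minimum count of 10, TMM, quasi-likelihood tests, Benjamini-Hochberg adjustment over all genes, threshold 0.05): 1 fit per region on 20 libraries and 1 fit of all 60 for regions. Standard errors come from the F statistics. DESeq2 1.42.0, limma 3.58.1 on log2(RPKM + 1), no TMM, no filter, RIN, a mouse block and left-out mice were alternatives. The mice pair the regions by design; residuals of the same mouse correlated at 0.0327 to 0.0709. The steps were tested on simulated data. Levels are RPKM. The genes and lists were chosen with earlier results of these data known. Named were the 5 enzymes, Glo1, list genes past the threshold within a region, the 4 with the largest called differences per region pair, the 3 most abundant of each list, and the 3 most correlated genes per enzyme; the clock and immediate early lists are given in the closing section. 1 gene that this rule names is not reported here. Values of 5 mice per group measure the spread between animals. Each of the 60 columns was matched by name.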

Additional observations from a re-analysis of the deposited data

Results flagged for a closer look

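Among 72 sets of 5 libraries (the 5 enzymes and Oaz1 in 12 groups), 6 held a value far from the other 4 by Dixon's criterion; chance flags about 1 in 20. Odc1 read 7.67 RPKM in 1 prefrontal library of WT mice on the normal diet, below 8.93 to 9.39 in the others. Sgpl1 read 6.005 RPKM in 1 hippocampal library of KO mice on the normal diet, above 4.45 to 4.76. Sptlc2 read 7.11 RPKM in 1 prefrontal library of KO mice on the normal diet, above 6.70 to 6.78, a gap that is large only against the narrow spread of the others. Oaz1 held the other 3: 26.7 RPKM in the prefrontal cortex of a KO mouse on the lacking diet, against 16.6 to 18.8, 48.6 in the striatum of the same mouse, against 15.4 to 24.2, and 75.5 in the striatum of a KO mouse on the normal diet, against 18.6 to 26.5.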

How the results depend on the processing

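The 0 of 5 counts for diet, KO, interaction and their differences between regions were 0 in every setting and with each mouse left out; the smallest adjusted p of these genes in any of those fits within a region was 0.15. For regions, the count between prefrontal cortex and hippocampus went from 1 to 2 with limma and to 2 without TMM, and was 0 to 1 with 1 mouse left out. Between striatum and hippocampus it went from 1 to 3 with limma, to 3 without TMM and to 2 with RIN, and was 1 to 2 with 1 mouse left out. Between prefrontal cortex and striatum it was 2 to 3 with 1 mouse left out. Without TMM factors, the median of all genes moved to -0.07 for prefrontal cortex minus hippocampus and to -0.08 for striatum minus hippocampus, and the estimates of Alas1, Sgpl1 and Sptlc2 for the first and of Sptlc1 and Sptlc2 for the second changed sign, none of them called. In the paired fit with the mouse as replicate block, the counts were 3, 1 and 1 as without it, and Alas1 had 0.22 and -0.19. Without the 8 choroid-rich libraries, a setting chosen after seeing the data, Sgms2 turned from -0.42 to 0.077 between striatum and hippocampus; the cause was not tested.

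Counts over all genes moved more. For KO over diets in the prefrontal cortex there were 89 calls, 230 with DESeq2, 189 with RIN and 46 to 390 with 1 mouse left out; in the hippocampus 22, 38, 41 and 17 to 29, and 5 without the choroid-rich libraries. On the lacking diet there were 31 in the prefrontal cortex, 88 with DESeq2, 47 with RIN, 17 with limma and 15 to 217 with 1 mouse left out; in the striatum 17, 30 with DESeq2 and 3 with RIN; in the hippocampus 9, 19 with DESeq2 and 2 without the choroid-rich libraries. On the normal diet the striatum had 8, 15 with DESeq2 and 13 with limma, and the hippocampus 4, 8 with DESeq2, 8 with limma and 2 without the choroid-rich libraries. KO mice on the lacking against WT mice on the normal diet gave 37 in the prefrontal cortex, 142 with DESeq2, 95 with RIN, 81 without the filter and 21 with limma; 11 in the striatum and 24 with DESeq2; and 2 in the hippocampus and 15 with DESeq2. Genotype and batch cannot be told apart in any of them.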

Other observations

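Clock output genes, which include regulators known to act on Alas1, differed between regions mostly in 1 direction. Of 13 tested, 9 were lower and 0 higher in the prefrontal cortex than in the striatum; 69.2% were thus called, beside 69.9% of all genes, of which 35.9% were lower. Against the hippocampus 11 were higher and 0 lower in the prefrontal cortex, beside 29.1% higher and 30.2% lower of all genes, and 12 were higher and 0 lower in the striatum, beside 33.6% and 32.9%. Their median log2 differences were -0.41, 0.40 and 0.66, beside -0.01, -0.01 and 0.01 over all genes. Dbp had 19.7 ± 4.87 RPKM in the striatum, 8.10 ± 2.03 in the prefrontal cortex and 6.36 ± 1.83 in the hippocampus (SD, n = 20), and Npas2 19.0 ± 1.39, 12.4 ± 0.924 and 6.29 ± 0.598. Alas1 was lowest in the striatum, and its relation to the clock output genes was not tested. Most immediate early genes had their lowest levels in the hippocampus: 10 of 10 were higher in the prefrontal cortex (29.1% of all genes), with Egr1 at 81.4 ± 17.8 against 24.7 ± 3.01 RPKM, and 9 of 10 were higher and 1 lower in the striatum (33.6% and 32.9% of all genes). Neither list had a gene called for diet or KO averaged over the other factor in any region (0 of 13 and 0 of 10 in each).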
